A study of Homo sapiens with 6 samples.

Results

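The genes described here encode the core of PI3K, AKT and mTOR signalling: the catalytic subunits PIK3CA and PIK3CB, the regulatory subunits PIK3R1 and PIK3R2, the kinases AKT1 and AKT2, the kinase MTOR, and RICTOR, a subunit of mTOR complex 2. Their rows were picked by gene symbol, without the use of any measured value in the rule, and they make up 8 of the 18768 genes to which the rows of the transcript count table belong. Growth factor receptors recruit a PI3K dimer of a regulatory and a catalytic subunit to the plasma membrane, where the catalytic subunit makes the lipid PIP3. AKT kinases bind PIP3 and are phosphorylated by PDPK1 and by mTOR complex 2, and AKT in turn relieves the TSC brake on mTOR complex 1, which promotes translation and cell growth. The pathway is a frequent target of mutation in colorectal cancer, and HCT116 cells themselves are known to carry an activating mutation of PIK3CA.

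All libraries came from HCT116, an established human colorectal cancer line grown in DMEM with fetal bovine serum. One group received a negative control siRNA (siRNA-NC). The other received an siRNA directed at the long non-coding RNA AC010789.1 (si-AC010789.1). Each group had 3 libraries. The labels give no time after transfection. AC010789.1 itself was not analysed here, and its level therefore gives no check of the labels. The paper describes biological repeats made with cells of different generations; no label says more about separate cultures, so the p-values measure only the spread between these libraries.

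The authors deposited read counts per transcript, and total counts ran from 11277222 to 13443866 per library. A count of 3, taken as the lowest level to be read, equals between 0.223 and 0.266 CPM (the count scaled to the size of its library). Of 14 markers of colorectal epithelium, 8 were analysed here. KRT8, KRT18, EPCAM and CLDN7 had over 10 counts in every library, while CDH1 had 8 to 13 counts and CLDN3 and LGALS4 had at most 4. CLDN4 had 290, 298 and 326 counts in siRNA-NC against 331, 4 and 22 in si-AC010789.1, so 2 of the 3 treated libraries lay far below the other 4. The other 6 markers, CDX1, CDX2, VIL1, KRT19, KRT20 and CEACAM5, had no row among the transcript counts and could not be analysed. The summed level of the epithelial markers ran from 1033 to 1274 CPM in siRNA-NC against 828 to 1090 CPM in si-AC010789.1, that of 9 fibroblast and mesenchyme markers, led by VIM, from 836 to 984 against 723 to 898 CPM, and that of 6 leukocyte markers from 6.08 to 9.05 against 2.59 to 5.35 CPM. Of the 9 mesenchyme markers, 6 had a row and 5 had over 10 counts in every library. Of the 6 leukocyte markers, 2 had a row. The mesenchyme markers COL1A1 and PDGFRB had 426 to 616 and 185 to 235 counts, against 35 to 68 for the epithelial marker EPCAM. The epithelial keratins KRT8 and KRT18 had 4395 counts or more in every library. The part of these markers in the results below was not tested.

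Most of the members are read from several transcripts, and a few short stretches of coding sequence show which of them can be told apart. The sequences were read from the GENCODE v29 annotation on GRCh38, 5′ to 3′ on the coding strand, with the start codon in capitals in the first set. The coding sequences of the paired regulatory subunits and of the paired AKT kinases open as follows, and the read-through gene AC007192.1 opens like PIK3R2.
PIK3R1-211, chr5:68226676-68226705 (+): ATGagtgctgaggggtaccagtacagagcg
PIK3R2-201, chr19:18155880-18155909 (+): ATGgcgggccctgagggcttccagtaccgc
AC007192.1-201, chr19:18155880-18155909 (+): ATGgcgggccctgagggcttccagtaccgc
AKT1-211, chr14:104792614-104792643 (-): ATGagcgacgtggctattgtgaaggagggt
AKT2-206, chr19:40265238-40265267 (-): ATGaatgaggtgtctgtcatcaaagaaggc
AKT1 and AKT2 share 19 of these 30 bases position by position, and PIK3R1 and PIK3R2 share 8 of 30. The lines of PIK3R2-201 and AC007192.1-201 are the same bases of chromosome 19, and their whole coding sequences of 2184 bases are identical. PIK3R2-201 is annotated as protein-coding, whereas AC007192.1-201 is annotated as a target of nonsense-mediated decay.

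RICTOR-201 and RICTOR-202 differ by 1 coding stretch of 72 bases, chr5:38949356-38949427 on the minus strand, which RICTOR-201 alone contains. The coding sequence around the place where it is joined is shown for both, with the stretch in capitals.
RICTOR-201: attaacaccaagcagGATCGATTTTAAAAA
RICTOR-202: attaacaccaagcaggttcatgaaagcctt
A read over this junction belongs to 1 of the 2 transcripts, whereas a read over the lines of PIK3R2-201 and AC007192.1-201 fits both.

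None of the 8 member genes had an adjusted p under 0.05 in edgeR's quasi-likelihood test, against 0.944% of the 13764 genes tested (130 genes). All 8 passed the filter on low counts. In si-AC010789.1, 3 members had a higher and 5 a lower fitted level, with a median log2 fold change of -0.047 against -0.00059 over all genes tested. PIK3R1 and MTOR were the 2 members with an unadjusted p under 0.05, against 17.2% of all genes, and also the 2 members whose groups did not overlap, against 25.1% of all genes. With 3 libraries against 3, an exact permutation test cannot give a p below 0.1.

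**Figure D1:**
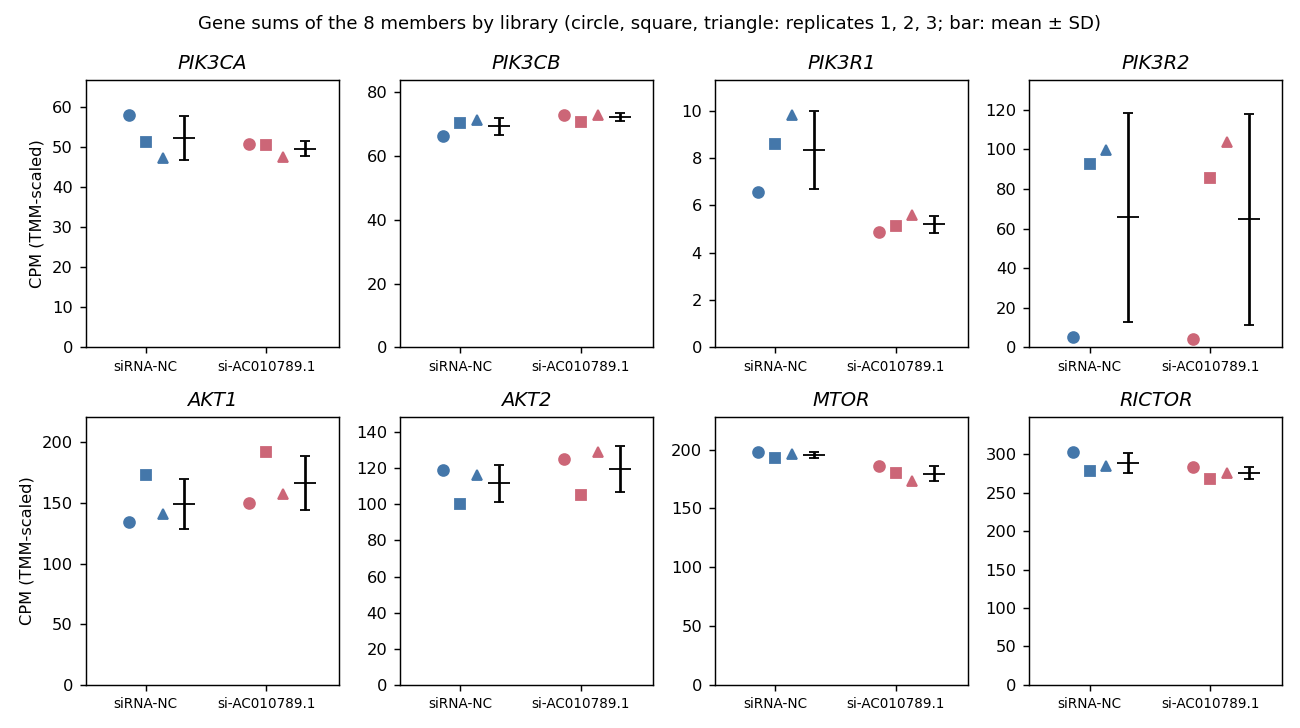
Level of each member gene (vertical axis, CPM, from 0) in the 3 siRNA-NC and 3 si-AC010789.1 libraries, with the mean ± SD beside each group. The groups do not overlap for PIK3R1 (6.56 to 9.83 against 4.89 to 5.59 CPM) and MTOR (193 to 198 against 173 to 186 CPM), and PIK3R2 is near 5 CPM in 1 library of each group.

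PIK3CA, on chr3:179148114-179240093, encodes the catalytic subunit alpha, and PIK3CB, on chr3:138652699-138834938, the catalytic subunit beta. PIK3CA had 656, 681 and 631 counts in siRNA-NC replicates 1, 2 and 3, and 581, 634 and 587 counts in si-AC010789.1 replicates 1, 2 and 3, which is 52.3 ± 5.46 and 49.6 ± 1.83 CPM (SD, n = 3 each). The groups overlapped, and the log2 fold change of -0.07 (SE 0.091, 95% interval -0.29 to 0.14) had an adjusted p of 0.731 by edgeR. PIK3CB had 749, 935 and 950 counts in siRNA-NC against 836, 885 and 899 in si-AC010789.1, or 69.4 ± 2.63 and 72.2 ± 1.28 CPM (SD, n = 3 each). These groups overlapped too, with a log2 fold change of 0.06 (SE 0.057, interval -0.08 to 0.19, edgeR adjusted p 0.671). The intervals leave room for changes of no more than 0.29 on the log2 scale in either gene. Exons of PIK3CA overlap those of KCNMB3 on the opposite strand, which had 24 to 53 counts; whether the counting used the strand of the reads is not given in the sources used here.

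PIK3R1, on chr5:68215720-68301821, encodes the regulatory subunit alpha, which stabilises the catalytic subunits and holds them inactive until a receptor is bound. It had 74, 114 and 131 counts in siRNA-NC against 56, 64 and 69 in si-AC010789.1. Its level was 6.56, 8.60 and 9.83 CPM against 4.89, 5.11 and 5.59 CPM, so every si-AC010789.1 library lay below every siRNA-NC library. The log2 fold change was -0.68 (SE 0.18, interval -1.11 to -0.25), with an unadjusted p of 0.0079 and an adjusted p of 0.14 by edgeR, and the exact permutation test gave 0.1, the smallest value it can give. The difference thus did not pass the adjustment over all genes. In bulk RNA, fewer cells holding a transcript and less of it per cell cannot be told apart.

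PIK3R2, on chr19:18153118-18170540, encodes the regulatory subunit beta. It had 57, 1229 and 1329 counts in siRNA-NC against 47, 1074 and 1288 in si-AC010789.1, so replicate 1 of each group stood far below the other libraries, which lay between 85.8 and 104 CPM. The fitted log2 fold change of -0.03 had an SE of 1.20 and an interval from -2.91 to 2.86 (edgeR adjusted p 0.994), which is too wide to show any change. Leaving out single libraries moved it from -0.57 to 0.53.

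AC007192.1, on chr19:18153158-18178117, is a read-through gene annotated with 1 transcript of 25 exons, of which 16 overlap exons of PIK3R2 and 7 overlap exons of IFI30, the neighbouring gene of a lysosomal thiol reductase. Its transcript had 1215, 95 and 0 counts in siRNA-NC against 2505, 0 and 0 counts in si-AC010789.1. The libraries in which PIK3R2 was low were thus the 2 in which AC007192.1 was high. IFI30 had 1409, 1697 and 1629 counts in siRNA-NC against 109, 1484 and 1536 in si-AC010789.1, and was low in the 1 library with the most AC007192.1 counts.

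Summed over PIK3R2 and AC007192.1, the counts were 1272, 1324 and 1329 in siRNA-NC against 2552, 1074 and 1288 in si-AC010789.1, and the log2 fold change was 0.40 (SE 0.34, edgeR adjusted p 0.608). Summed over all 3 genes they were 2681, 3021 and 2958 against 2661, 2558 and 2824, or 229 ± 7.93 and 222 ± 15.2 CPM (SD, n = 3 each). On this sum the log2 fold change was -0.05 (SE 0.062, interval -0.20 to 0.10, edgeR adjusted p 0.754), an SE far below that of PIK3R2 alone. Without replicate 1 of both groups, PIK3R2 alone gave -0.02 (SE 0.12, edgeR adjusted p 0.964). These 3 settings were chosen after the data were seen. How the counting divided reads that fit several genes is not given in the sources used here, so the level of PIK3R2 in the replicate 1 libraries is uncertain.

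**Figure D2:**
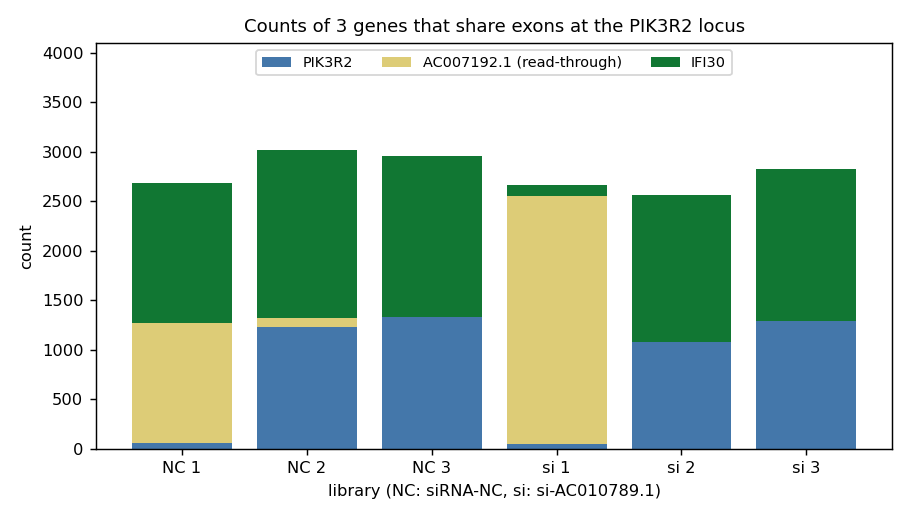
Counts (vertical axis) of PIK3R2, the read-through gene AC007192.1 and IFI30 stacked for each of the 6 libraries. The division among the 3 genes differs in both replicate 1 libraries, where PIK3R2 has 57 and 47 counts, while the stacked total stays between 2558 and 3021 counts.

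AKT1, on chr14:104769349-104795751, and AKT2, on chr19:40230317-40285536, encode kinases that act downstream of PIP3. AKT1 lay at 134, 173 and 141 CPM in siRNA-NC against 150, 192 and 157 CPM in si-AC010789.1, with the highest level in replicate 2 of each group. The groups overlapped, with a log2 fold change of 0.16 (SE 0.13, interval -0.16 to 0.47, edgeR adjusted p 0.595). AKT2 lay at 119, 100 and 116 CPM in siRNA-NC against 125, 105 and 129 CPM in si-AC010789.1, with the lowest level in replicate 2 of each group. Its log2 fold change was 0.10 (SE 0.10, interval -0.15 to 0.34, edgeR adjusted p 0.688). In neither kinase was the difference larger than the spread between replicates.

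MTOR, on chr1:11106535-11262507, encodes the kinase of both mTOR complexes. It had 2237, 2562 and 2612 counts in siRNA-NC against 2126, 2252 and 2134 in si-AC010789.1, or 198, 193 and 196 CPM against 186, 180 and 173 CPM. The groups did not overlap, but the difference was small: the log2 fold change was -0.13 (SE 0.044, interval -0.23 to -0.02), with an unadjusted p of 0.0273 and an adjusted p of 0.23 by edgeR, and an exact permutation p of 0.1. The antisense gene MTOR-AS1, whose exons overlap those of MTOR, had no row among the transcript counts and could not be analysed.

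RICTOR, on chr5:38937919-39074408, encodes a scaffold of mTOR complex 2, the complex that phosphorylates AKT. Its level was 303, 278 and 285 CPM in siRNA-NC against 283, 268 and 276 CPM in si-AC010789.1. The groups overlapped, and the log2 fold change was -0.07 (SE 0.049, interval -0.18 to 0.05, edgeR adjusted p 0.534). Exons of RICTOR overlap those of OSMR, a cytokine receptor gene on the opposite strand, which lay at 247 ± 6.01 and 216 ± 3.52 CPM (SD, n = 3 each; edgeR adjusted p 0.092).

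Levels of different genes were compared as TPM (counts divided by transcript length, then scaled to the same total in every library), averaged over all 6 libraries since no member passed the test. AKT1 stood highest at 140 ± 21.8 TPM, followed by AKT2 at 109 ± 17.4 and RICTOR at 68.8 ± 3.16 (SD over 6 libraries). PIK3CB at 49.2 ± 4.93, MTOR at 46.8 ± 2.58 and PIK3R2 at 42.1 ± 27.2 TPM followed, then PIK3CA at 20.5 ± 5.6 and PIK3R1 at 4.37 ± 1.03 TPM. AKT2 exceeded RICTOR, RICTOR exceeded PIK3CB and PIK3CA exceeded PIK3R1 in 6 of 6 libraries. This order is over all transcripts of a gene. With protein-coding transcripts only, or with the median length of a gene's transcripts, the mean TPM of AKT2 lay below those of RICTOR and MTOR. PIK3CB and MTOR did not differ beyond their spread, with a log2 ratio of 0.07 ± 0.17, nor did PIK3R2 and its neighbours on either side. AKT1 exceeded AKT2 in 5 of 6 libraries, with a log2 ratio of 0.36 ± 0.31. The catalytic subunits thus ranked far above PIK3R1 on this scale. By group, PIK3R1 lay at 3.89 ± 0.951 TPM in siRNA-NC against 4.85 ± 1.03 in si-AC010789.1 (SD, n = 3 each), so its lower CPM in si-AC010789.1 did not hold per length. PIK3R2 lay between PIK3CA and PIK3R1 in both replicate 1 libraries and above both catalytic subunits in the other 4. The TPM of PIK3CA moved with PIK3CA-204, a transcript of 245 bases on which 0 to 22 counts fell.

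**Figure D3:**
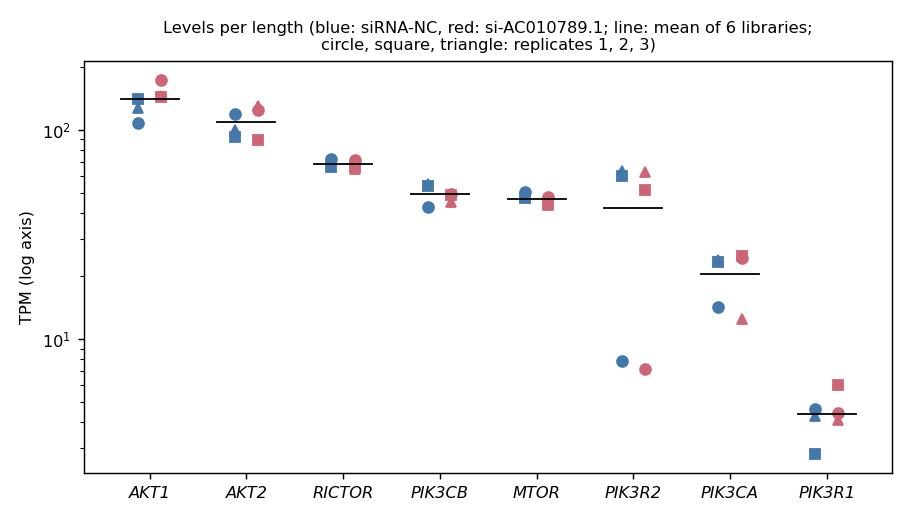
Level per length of the 8 members, over all their transcripts, coding or not (vertical axis, TPM, log scale), in each library, ordered by the mean over 6 libraries. AKT1 and AKT2 lie at 89.5 TPM or more in every library and PIK3R1 at 6.03 TPM or less, while PIK3R2 spans 7.17 to 63.3 TPM.

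Of the 122 annotated transcripts of the 8 genes, 101 had counts in the table and 46 passed the filter. None had an adjusted p under 0.05 by edgeR, against 0.0135% of the 44297 transcripts tested (6 transcripts). PIK3CB-201, PIK3R1-211 and AKT2-218 were the 3 with an unadjusted p under 0.05, against 5.74% of all transcripts. The fitted spread between replicates (biological coefficient of variation) was 0.698 for transcripts and 0.170 for genes, so a single transcript had to change much more to be called.

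**Figure D4:**
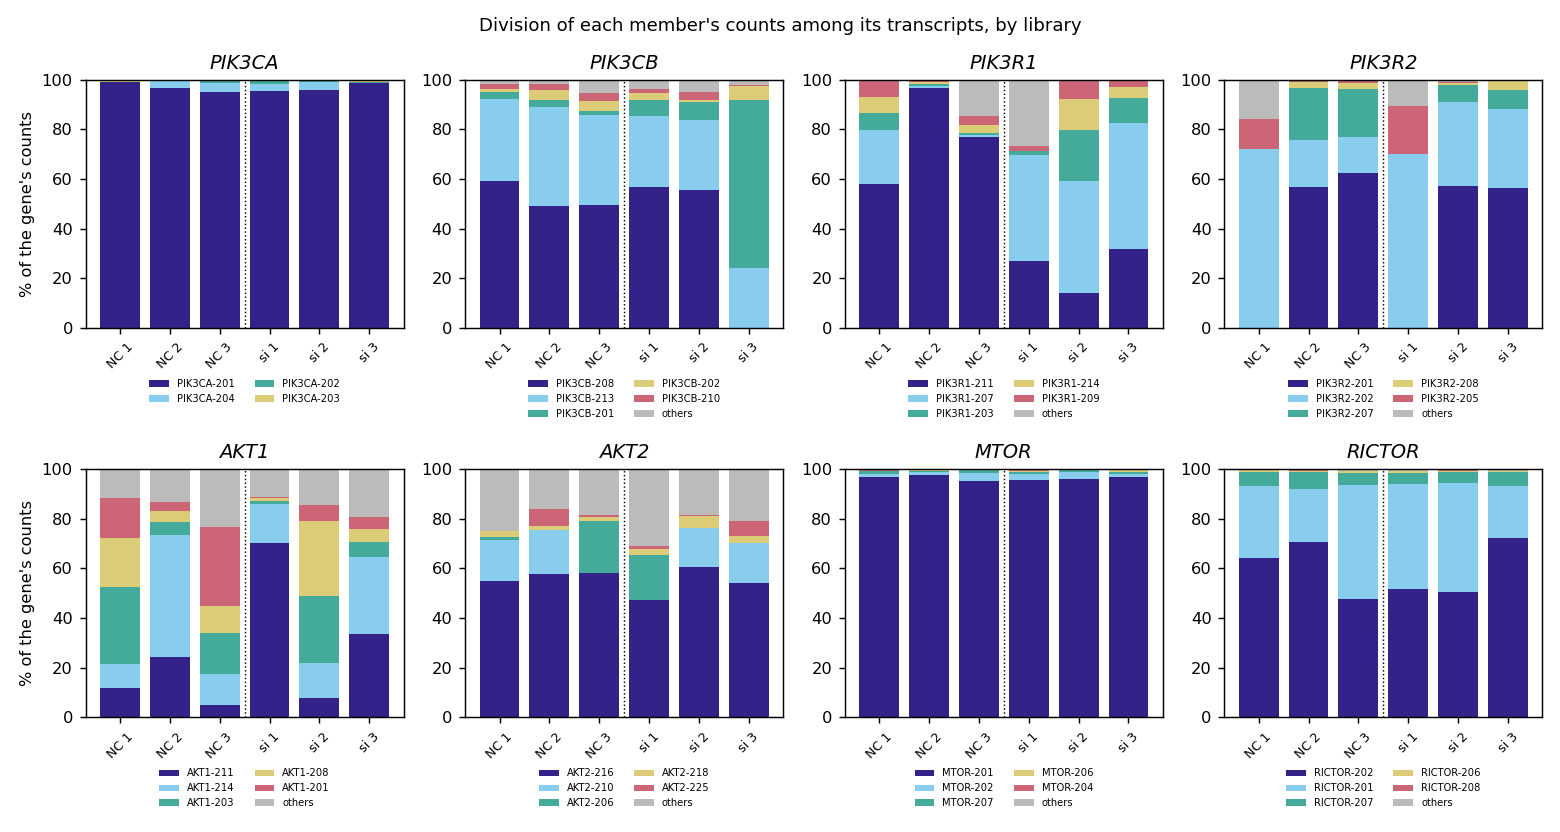
Percentage of each member's counts (vertical axis) that fell on its 5 most abundant transcripts and on the others, in each library (NC: siRNA-NC, si: si-AC010789.1). PIK3CA and MTOR rest on 1 transcript in every library (95.2% or more), PIK3R1 is divided differently in the 2 groups, and AKT1 is divided differently from library to library within both groups.

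PIK3R1 was the member whose division among transcripts differed most between the groups, by the share of counts that changed transcript (61.1% on average between libraries of different groups). PIK3R1-211 and PIK3R1-213, which share a coding sequence of 2172 bases for the full-length regulatory subunit, together had 43, 110 and 120 counts in siRNA-NC against 15, 9 and 22 in si-AC010789.1, or 7.24 ± 2.95 and 1.29 ± 0.545 CPM (SD, n = 3 each). The groups did not overlap. PIK3R1-207, annotated as a retained intron transcript with no coding sequence, had 16, 1 and 1 counts against 24, 29 and 35, again without overlap. PIK3R1-211 alone had a log2 fold change of -2.38 (SE 0.51, unadjusted p 0.00439, edgeR adjusted p 0.467), and PIK3R1-207 one of 2.22 (SE 1.12, edgeR adjusted p 0.913), which was 4.81 without siRNA-NC replicate 1 (edgeR adjusted p 0.197) and 1.70 without either of the other siRNA-NC libraries. DESeq2 gave an adjusted p of 0.00347 for PIK3R1-211.

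As a share of the gene, protein-coding transcripts of PIK3R1 held 64.9%, 97.4% and 94.7% of the counts in siRNA-NC against 26.8%, 26.6% and 36.2% in si-AC010789.1. Retained intron transcripts held 35.1%, 2.63% and 5.34% against 46.4%, 73.4% and 63.8%. The share of PIK3R1-211 differed by -53 percentage points on average (exact permutation p 0.1; 0.8 after adjustment over the leading transcripts of the 8 members), and it stayed between -62.6 and -43.4 points when any 1 library was left out. With protein-coding transcripts only, the log2 fold change of the gene was -2.21 (edgeR adjusted p 0.0891). Over all genes, retained intron transcripts held 6.06% ± 0.221 of the counts in siRNA-NC against 6.18% ± 0.125 in si-AC010789.1 (SD, n = 3 each), a difference smaller than the spread. All of these values rest on 56 to 131 counts per library for the whole gene.

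PIK3CB was divided between PIK3CB-208 and PIK3CB-201, which share 1 coding sequence of 3210 bases, and PIK3CB-213, a transcript with 2105 coding bases. PIK3CB-208 had 444, 458 and 469 counts in siRNA-NC against 476, 492 and 0 in si-AC010789.1, whereas PIK3CB-201 had 20, 25 and 13 against 53, 66 and 611. Replicate 3 of si-AC010789.1 held all of these counts on PIK3CB-201, and the fold of that transcript (log2 fold change 3.66, edgeR adjusted p 0.768) fell to 1.66 without it. Their sum was 464, 483 and 482 counts in siRNA-NC against 529, 558 and 611 in si-AC010789.1, or 38.9 ± 2.46 and 47.6 ± 2.63 CPM (SD, n = 3 each), with no overlap between the groups (exact permutation p 0.1). PIK3CB-213 had 248, 375 and 347 counts against 239, 248 and 216, at 26.1 ± 3.53 and 19.8 ± 1.76 CPM, also without overlap (exact permutation p 0.1, edgeR adjusted p 0.905). The means of the full-length class and of PIK3CB-213 thus lay in opposite directions while the gene sum did not differ beyond its spread. Because these classes hold most of a steady sum, the difference in PIK3CB-213 is not independent of that in the full-length class. The share of all transcripts whose groups do not overlap was not counted, so the lack of overlap has no background beside it.

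AKT1 showed the reverse case, a division that differed from library to library in both groups. The 6 transcripts with its 1440-base coding sequence together held 83.4% to 94.1% of the counts of the gene, with 1352, 2155 and 1573 counts in siRNA-NC against 1573, 2162 and 1781 in si-AC010789.1. Within that sum, AKT1-211 had 180, 558 and 91 counts against 1206, 189 and 648, and AKT1-214 had 143, 1127 and 235 against 267, 338 and 604. AKT1-203 had 471, 115 and 313 counts against 23, 646 and 116. The share of counts that changed transcript averaged 51.4% between libraries of the same group and 47.6% between libraries of different groups. The same measure was 30.2% within and 61.1% between groups for PIK3R1, and 1.69% and 1.52% for MTOR.

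AKT2 was led by AKT2-216, a retained intron transcript with no coding sequence, which had 738, 768 and 900 counts in siRNA-NC against 678, 793 and 859 in si-AC010789.1 and held 47.3% to 60.4% of the gene. The sum over all AKT2 transcripts is therefore in large part not a sum over coding transcripts, which held 26.7% to 33.6%. AKT2-210 had 224, 233 and 0 counts in siRNA-NC against 0, 207 and 256 in si-AC010789.1. AKT2-206, whose coding sequence has 129 bases more at 1443, had 14, 1 and 325 counts against 259, 1 and 1. In each library 1 of the 2 transcripts took over 200 counts and the other 14 or fewer, and 1 library of each group had the longer form. AKT2-218, another retained intron transcript, had 30, 21 and 28 counts against 37, 62 and 44, with a log2 fold change of 0.88 (SE 0.34, unadjusted p 0.0462, edgeR adjusted p 0.862).

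RICTOR-202, which lacks the 72-base stretch, had 2199, 2602 and 1813 counts in siRNA-NC against 1677, 1692 and 2461 in si-AC010789.1. RICTOR-201, which contains it, had 987, 791 and 1740 counts against 1359, 1466 and 716. RICTOR-202 held more counts than RICTOR-201 in 6 of 6 libraries, with 47.8% to 72.2% of the gene. Its share differed by -2.68 percentage points between the groups (exact permutation p 1). These counts are not divided by length, which is 9543 bases for RICTOR-202 and 7505 for RICTOR-201, so they do not rank the forms by level. RICTOR-207, annotated as a target of nonsense-mediated decay (NMD), had 193, 253 and 187 counts against 155, 155 and 192. MTOR-201 held 95.2% to 97.7% of the counts of MTOR, and MTOR-202 and MTOR-207 had 88 counts or fewer in every library. PIK3CA-201 held 95.2% to 98.9% of PIK3CA. PIK3R2-201 held 56.5% to 62.5% of PIK3R2 in replicates 2 and 3 of both groups and 0 counts in replicate 1 of both, where PIK3R2-202, an NMD transcript, led with 41 and 33 counts. PIK3R2-207 was also at 0 counts in both replicate 1 libraries and had 258 and 255 counts in the other siRNA-NC libraries against 73 and 97 in the other si-AC010789.1 libraries. In the same libraries PIK3R2-202 went the other way, with 232 and 192 counts against 364 and 408.

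The rest of the pathway was described by 10 lists that hold 116 genes besides the members, of which 104 were tested. EIF4EBP2 was the 1 gene with an adjusted p under 0.05, and it was lower, against 0.944% of all genes called. In all, 49 of the 104 were higher and 55 lower, with a median log2 fold change of -0.017. At an unadjusted p under 0.05 there were 9 higher and 11 lower genes, 20 in all, against 17.2% of all genes tested, and 29 genes had groups that did not overlap, against 25.1% of all genes.

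EIF4EBP2, on chr10:70404379-70428618, encodes a binding protein that blocks the cap-binding factor EIF4E until mTOR complex 1 phosphorylates it. It lay at 269, 248 and 268 CPM in siRNA-NC against 175, 156 and 164 CPM in si-AC010789.1, so all 3 treated libraries were below all 3 controls. The log2 fold change was -0.67 (SE 0.06, interval -0.81 to -0.52, edgeR adjusted p 0.0151). The adjusted p was 0.0636 without siRNA-NC replicate 1, 0.0604 without siRNA-NC replicate 3, 0.0577 without si-AC010789.1 replicate 2 and 0.0742 without si-AC010789.1 replicate 3, while the log2 fold change stayed between -0.71 and -0.62. Its counts came from 1 transcript.

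Among the 23 tested effectors of AKT and mTOR, 11 were higher and 12 lower, with a median of -0.0066 on the log2 scale. EIF4B, a translation initiation factor phosphorylated by S6 kinase, lay at 1398, 1118 and 1327 CPM in siRNA-NC against 1010, 955 and 966 CPM in si-AC010789.1, with a log2 fold change of -0.39 (SE 0.085) that missed the threshold (edgeR adjusted p 0.0985). The pseudogenes EIF4BP3, EIF4BP6 and EIF4BP7, near copies that could take reads of EIF4B, were each lower in si-AC010789.1, without overlap. EIF4BP3 had 1106 to 1264 counts in siRNA-NC against 717 to 783 in si-AC010789.1. EIF4BP6 had 1329 to 1612 against 913 to 1049, and EIF4BP7 2415 to 2977 against 1751 to 1954. How reads were divided between EIF4B and these copies was not tested. Of 12 FOXO target genes, 5 were higher and 7 lower, and the smallest p-values were those of BCL6 (log2 fold change -0.61, SE 0.18, edgeR adjusted p 0.163) and GADD45A (0.31, SE 0.11, edgeR adjusted p 0.235).

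Upstream of AKT, PIK3CD and PIK3R3 were the 2 other class I subunits tested, with log2 fold changes of -0.43 (edgeR adjusted p 0.197) and -0.26 (edgeR adjusted p 0.523). Exons of PIK3CD overlap those of CLSTN1 on the opposite strand, which had 3098 to 4524 counts, while PIK3CD itself had 100 to 179. Of 4 tested class II and III genes, 2 were higher and 2 lower, with PIK3C3, the kinase of autophagy, at -0.24 and PIK3C2B at 0.18 (edgeR adjusted p 0.241 and 0.402). Of 8 tested receptors and adaptors, 3 were higher and 5 lower. The insulin receptor substrate IRS1 lay at 133, 152 and 149 CPM in siRNA-NC against 124, 122 and 125 CPM in si-AC010789.1 (log2 fold change -0.23, edgeR adjusted p 0.143), and the adaptor GAB1 had a log2 fold change of -0.28 (edgeR adjusted p 0.264). Of these 8 genes, 3 had groups that did not overlap, against 25.1% of all genes. IRS1 and GAB1 were lower, like PIK3R1, whereas the adaptor GRB2 was higher. GRB2 lay at 101, 106 and 79 CPM in siRNA-NC against 110, 116 and 108 CPM in si-AC010789.1 (log2 fold change 0.22, edgeR adjusted p 0.384).

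PDPK1, the kinase that phosphorylates AKT in its activation loop, had the largest fitted difference of the lists. It lay at 34.5, 33.4 and 28.7 CPM in siRNA-NC against 100, 45.9 and 54.0 CPM in si-AC010789.1, with the highest level in replicate 1. The log2 fold change was 1.05 (SE 0.29, interval 0.35 to 1.75, edgeR adjusted p 0.154), and it was 0.63 without that library. DESeq2 gave an adjusted p of 0.0085. PDPK2P, a near-identical copy, had 50 to 70 counts in siRNA-NC against 36 to 45 in si-AC010789.1. The counts of PDPK1 itself were 383 to 443 against 574 to 1148. How reads that fit both genes were divided was not tested.

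All 10 partners in the mTOR complexes were tested, of which 6 were higher and 4 lower, and the smallest p-values were those of TELO2, which helps to assemble mTOR complexes, at 0.27 (edgeR adjusted p 0.24) and PRR5, a subunit of mTOR complex 2, at 0.30 (edgeR adjusted p 0.274). PRR5, with 75 to 111 counts, shares exons on the same strand with the read-through gene PRR5-ARHGAP8, which had 0 to 35 counts, and with protein-coding transcripts only its value was 0.63 (edgeR adjusted p 0.739). Exons of TELO2 overlap those of IFT140 on the opposite strand, which had 471 to 596 counts. Of the 11 tested phosphatases and inhibitors of PI3K and AKT, 6 were higher and 5 lower. TRIB3, a pseudokinase that binds AKT, lay at 29, 24.8 and 38.6 CPM in siRNA-NC against 46.6, 48.2 and 42.3 CPM in si-AC010789.1 (log2 fold change 0.57, SE 0.17, edgeR adjusted p 0.164, DESeq2 adjusted p 0.0454), and the phosphatase PHLPP2 had a log2 fold change of -0.32 (edgeR adjusted p 0.3).

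Of the 14 tested genes of the TSC complex and its regulators, 4 were higher and 10 lower, and 0 had an unadjusted p under 0.05. TSC1, which stabilises TSC2 in the complex, lay at 127, 120 and 121 CPM in siRNA-NC against 120, 89.1 and 53.3 CPM in si-AC010789.1, with a spread of 2.26-fold among the 3 treated libraries (log2 fold change -0.49, edgeR adjusted p 0.41). PRKAB1, a subunit of AMPK, had a log2 fold change of 0.17 (edgeR adjusted p 0.547). Of 21 tested genes of amino acid sensing, 11 were higher and 10 lower. WDR24 and SEH1L, both subunits of the GATOR2 complex that activates mTOR complex 1, had log2 fold changes of -0.37 (edgeR adjusted p 0.127) and 0.25 (edgeR adjusted p 0.197), and so lay on opposite sides of 0.

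**Figure D5:**
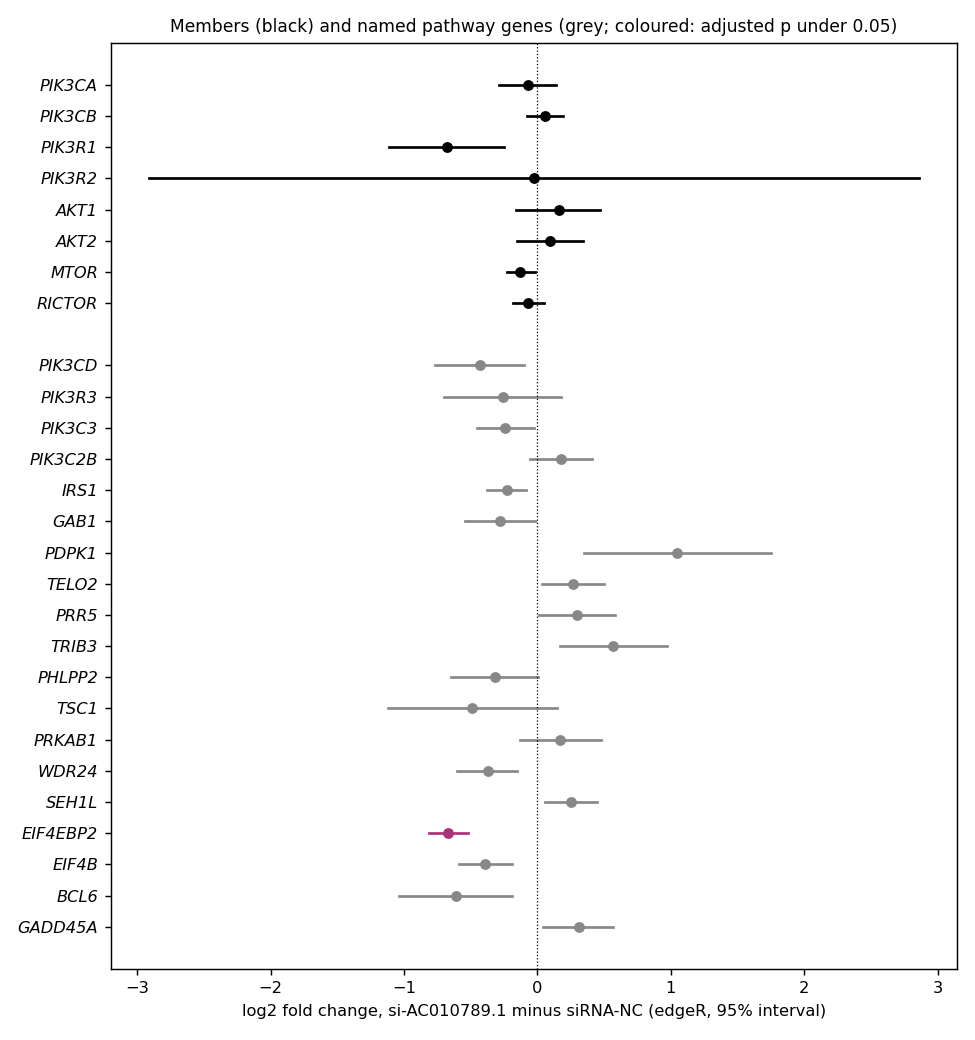
Log2 fold change of si-AC010789.1 against siRNA-NC (horizontal axis) with its 95% interval from edgeR, for the 8 members and 19 named genes of the pathway lists. EIF4EBP2, at -0.67, is the gene with an adjusted p under 0.05, and the interval of PIK3R2 runs from -2.91 to 2.86.

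The gene most like a member over the 6 libraries, by Pearson's r of log2(CPM + 1) among 13764 genes, was XDH for PIK3CA (r = 0.992), MARCH5 for PIK3CB (0.995) and RPL17-C18orf32 for PIK3R2 (0.999). For AKT1 it was TMEM185B (0.993), for AKT2 ZNF280B (0.976), for MTOR AC240274.1 (0.997) and for RICTOR LYSMD3 (0.994). Between 18 and 74 genes exceeded an r of 0.95 with a given member. These points share their library and its depth, and with 6 points the values are a description only.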

How the data were processed

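HCT116 cells with siRNA-NC or si-AC010789.1 were profiled by paired-end TruSeq RNA sequencing, with 3 libraries per group. The table that the authors deposited holds counts as whole numbers, 1 row per Ensembl transcript, and they are not normalized. The submitters' processing notes name CASAVA 1.8, TopHat2 2.0.6 and the builds GRCh38 and mm10, with no role or order, and the paper names Cuffdiff. The counting program and the treatment of reads that fit several transcripts are not given in the sources used here, and this treatment affects single transcripts more than gene sums. Floors of 3 counts cover counting error only.

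Of 98886 rows, 98803 were matched to GENCODE v29 and summed per gene, and 83 stayed out. Gene sums and transcripts were each tested over the whole table with edgeR 4.0.16 (TMM factors from 0.9935 to 1.0073 for genes, filterByExpr with a minimum count of 10 and total of 15, quasi-likelihood test, Benjamini-Hochberg adjustment, threshold 0.05) in R 4.3.3. CPM used TMM-scaled library sizes. SEs were derived from the fold change and the F statistic. Shares of transcripts were compared by two-sided exact permutation tests. The members, the lists and the markers were chosen with earlier results of these data known. Named were all members, the 3 most abundant transcripts of each and any with an unadjusted p under 0.05. Per list, the genes called were named or, failing that, those of smallest p until 2 were named. KCNMB3, OSMR, AC007192.1, IFI30, other genes sharing exons, near copies, ULK1, GRB2 and further transcripts were named after their values were seen. The alternatives were DESeq2 1.42.0, upper-quartile factors, all rows without a filter, a minimum mean of 1 CPM, the replicate number as a block, protein-coding transcripts only and leaving out each library.

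The edgeR tests of genes and of transcripts were checked on simulated data with planted log2 changes of 1, 2, 4 and 6. The gene test called 70%, 92%, 98% and 100% of these. The transcript test called 0%, 2.04%, 16.7% and 41.7%, so the lack of called member transcripts does not show that they were unchanged. Python 3.11.15, pandas 2.3.3, scipy 1.17.1 and matplotlib 3.10.9 were used. The values of 1 gene covered by the rule for named genes are not reported here.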

Additional observations from a re-analysis of the deposited data

How the results depend on the processing

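Each group had 3 libraries, and PIK3R1 rested on 56 to 131 counts per library. Of the members, 0 had an adjusted p under 0.05 with edgeR in any setting run, while 2 had an unadjusted p under 0.05. DESeq2 called 0 of the 7 members to which it gave an adjusted p; to PIK3R1 it gave none, with an unadjusted p of 0.00896. Over all genes the count of 130 became 522 with DESeq2, 69 without a filter, 56 with protein-coding transcripts only, and 12 to 37 when 1 library was left out. It became 4 without both libraries of replicate 1, a setting chosen after the data were seen. The count of pathway genes called, 1 with edgeR (EIF4EBP2), was 5 with DESeq2, which also called EIF4B, PDPK1, TRIB3 and ULK1 (ULK1 was named after its values were seen), 0 to 1 when 1 library was left out, and 0 without both libraries of replicate 1. The count of member transcripts called, 0 with edgeR, was 1 with DESeq2, for PIK3R1-211. Fits without a library hold fewer samples; the cause of the other changes was not tested.

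With the replicate block, a paired fit on the replicate number, 0 genes, 0 pathway genes and 0 members were called, and EIF4EBP2 had a log2 fold change of -0.67 with an edgeR adjusted p of 0.101. After removal of the group means, same-numbered libraries correlated at 0.09, 0.0027 and 0.00066 over all genes, each below the 0.1 taken as the limit for pairing. The replicate 1 libraries correlated best with each other, and those of replicates 2 and 3 did not correlate best with their own number. Single members did go by number: PIK3R2 was low in replicate 1 of both groups, and AKT1 was highest and AKT2 lowest in replicate 2 of both. With the block, AKT1 and AKT2 had edgeR adjusted p of 0.246 and 0.43. The block turned the log2 fold change of AKT1-214 to 0.28 and that of PIK3CA-204 to 0.10.

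Leaving out 1 library gave log2 fold changes from -0.14 to 0.01 for PIK3CA and from -0.57 to 0.53 for PIK3R2, and PIK3R2 with AC007192.1 gave 0.40, so their directions are not fixed. The log2 fold changes of the other members, all fitted on counts, kept their direction in all settings run. Per length, the mean TPM of PIK3R1 was 3.89 ± 0.951 in siRNA-NC against 4.85 ± 1.03 in si-AC010789.1 (SD, n = 3 each). That of PIK3CB was 50.8 ± 7.03 against 47.7 ± 2.06. In both genes the direction per length, over all transcripts, was thus opposite to that of the counts. The TPM of protein-coding transcripts alone was not compared between the groups. Among transcripts the ranges over left-out libraries were -0.66 to 1.12 for AKT1-214, -2.11 to 0.37 for AKT1-203, -0.067 to 0.05 for AKT2-216 (0.011 with upper-quartile factors), -0.60 to 0.57 for AKT2-210, -6.59 to 3.53 for AKT2-206, -0.25 to 0.77 for MTOR-202, -0.60 to 0.52 for PIK3CA-204, -0.90 to 0.14 for PIK3CB-208, -0.70 to 0.47 for PIK3R2-201 and -0.16 to 0.41 for RICTOR-201. The difference in the share of the leading transcript ran from -1.36 to 0.565 percentage points for PIK3CA-201, -24.7 to 3.72 for PIK3CB-208, -21.8 to 17 for PIK3R2-201 (13.1 among protein-coding transcripts), -6.23 to 0.274 for AKT2-216, -1.04 to 0.203 for MTOR-201 and -9.72 to 2.14 for RICTOR-202.

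The order of levels depended on the length used and on the transcripts included. With the median length of a gene's transcripts, the mean TPM was 224 for RICTOR, 170 for MTOR, 158 for AKT2 and 75.2 for PIK3CA. With protein-coding transcripts only, it was 59.5 for RICTOR, 43.1 for MTOR, 39.8 for AKT2 and 1.97 for PIK3R1.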
